A study of Xenopus laevis with 72 samples.

Results

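The genes aldh1a2.L (gene ID 399389) and aldh1a3.L (gene ID 733178) encode retinaldehyde dehydrogenases, the enzymes that make retinoic acid (RA). They were taken by symbol from a high-throughput quantitative PCR (HT-qPCR) panel of 24 genes, 23 target genes and the reference gene gapdh, and are 2 of these 24, the panel's rows with an aldh1a symbol. The panel was measured in pools of whole, wildtype embryos from 6 clutches (G to L) of the frog Xenopus laevis. The exposure lasted 2 h, from stage 9.5 to stage 10.25 (late blastula to early gastrula), and was to 10 nM RA (RA addition), to 50 uM DEAB (RA knockdown), or to neither (control). Embryos were then washed and collected at once (t = 0 h) or 1.5, 3 or 4.5 h later. This gave 12 groups of 6 samples, 72 in all, each a pool of 5 to 10 sibling embryos and 1 from each clutch in every group. A pool of whole embryos carries no information on where in the embryo a transcript is, and fewer expressing cells and less RNA per cell cannot be told apart. The letter L marks 1 of the 2 subgenomes of this allotetraploid frog; the S homeologs of both genes were not analysed here, nor was the ability of the primers to tell L from S.

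RA is made from retinol (vitamin A) in 2 oxidations. Retinol dehydrogenases such as RDH10 make retinaldehyde, and the ALDH1A enzymes (also called RALDH) turn retinaldehyde into RA in a step that cannot be reversed in the cell. ALDH1A2 (RALDH2) is the main RA-producing enzyme of the early vertebrate embryo and is needed for embryonic development in the mouse, and ALDH1A3 (RALDH3) makes RA in later territories such as the eye and the nasal region. DEAB, diethylaminobenzaldehyde, inhibits aldehyde dehydrogenases of this family. It acts on the enzyme, so the transcript levels below are no measure of the inhibition itself.

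Both genes were measured in 72 of 72 samples. Levels are log2 values relative to gapdh with the median of each gene set to 0, so 1 unit is a 2-fold difference, and the level of aldh1a2.L cannot be set against that of aldh1a3.L. The threshold cycle (Ct), which falls as transcript rises, had a mean of 13.78 for aldh1a2.L (11.42 to 16.12), the lowest but 3 of the 24 genes. It had a mean of 21.70 for aldh1a3.L (18.83 to 25.26), the highest but 2. The residual SD, which is the spread left after group and clutch, was 0.31 for aldh1a2.L and 0.81 for aldh1a3.L, against a median of 0.74 over the 23 target genes. How many template molecules a Ct stands for is not known, and precision comes from the 6 clutches. Over all target genes, 2 samples lay farthest from the fitted values. These were DEAB at 0 h of clutch K (root mean square residual 1.70) and of clutch H (1.41), and the next was 1.09. The DEAB 0 h sample of clutch K also held the largest residual of aldh1a2.L (1.18). The main differences of each gene that use DEAB embryos at 0 h are also given without these samples. Differences between the genes, tests of change with time, shares of variation and correlations are given only with them. The largest residuals of aldh1a3.L were in RA at 0 h, in clutches K (2.00) and H (-1.74). Those RA samples were not left out singly.

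The time course of control embryos was compared first, since it is the baseline of development on which both treatments act. Both genes were upregulated between 0 and 4.5 h relative to gapdh. In control embryos at 0 h aldh1a2.L lay between -1.99 and -0.89 (median -1.43), and at 4.5 h between -0.30 and 1.33 (median 0.84). For aldh1a3.L the 6 values ran from -4.40 to -1.56 (median -2.48) at 0 h and from 0.32 to 2.44 (median 1.08) at 4.5 h. In both genes the lowest sample at 4.5 h was above the highest at 0 h, so the groups did not overlap. Overlap of groups, here and below, was examined in these 2 genes only, so it does not set them apart from the panel. The rise was 2.19 for aldh1a2.L (SE 0.19, 4.56-fold, adjusted p = 3.44e-16) and 4.09 for aldh1a3.L (SE 0.46, 17.1-fold, adjusted p = 4.67e-12), in 6 of 6 clutches each. The direction held without a reference gene, and relative to the mean of the panel aldh1a2.L fell by 1.20 and aldh1a3.L differed by 0.70, as described with the reference below. Of the 23 target genes, 82.6% rose over the same interval, so a rise by itself did not set the 2 genes apart. Ranked from the largest rise, aldh1a3.L was the 12th and aldh1a2.L the 15th of 23.

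**Figure D1:**
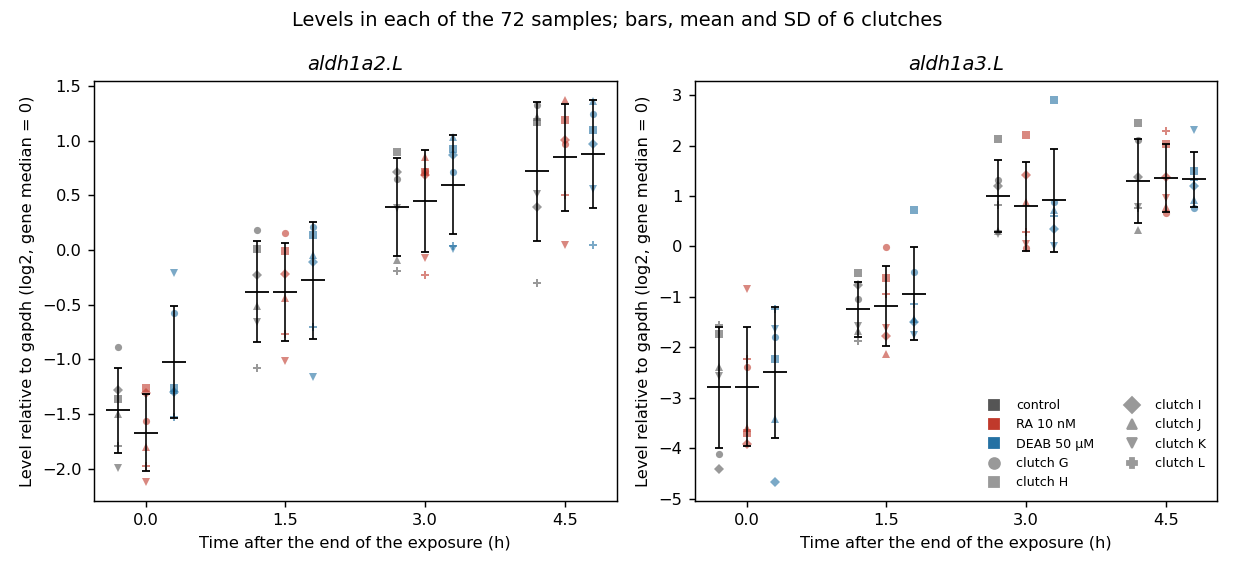
Level of aldh1a2.L (left) and aldh1a3.L (right) relative to gapdh in log2 units with the median of the gene at 0 (y axis, scaled separately) against hours after the end of the exposure (x axis), with 1 point per sample, colour for treatment and marker for clutch, and black bars for the mean and SD of 6 clutches. Both genes climbed with time in the 3 treatments, with control means from -1.47 to 0.72 for aldh1a2.L and from -2.79 to 1.30 for aldh1a3.L, and the treatments lay over each other at each time except for the high DEAB samples of aldh1a2.L at 0 h.

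Relative to gapdh, most of the control rise came before 3 h. In aldh1a2.L the first step, from 0 to 1.5 h, was 1.09 (SE 0.19, adjusted p = 2.05e-06), with values from -1.08 to 0.18 at 1.5 h. The second step, from 1.5 to 3 h, was 0.78 (SE 0.19, adjusted p = 0.0003) and brought the gene to between -0.19 and 0.90. The clutches moved together in these steps, by 0.71 to 1.37 in the first and by 0.42 to 1.04 in the second. In aldh1a3.L the first step was 1.55 (SE 0.46, adjusted p = 0.0037), in 5 of 6 clutches, and its size ran from -0.32 in L to 3.64 in I. The second step was 2.24 (SE 0.46, adjusted p = 2.83e-05) and ran only from 1.82 to 2.71. At 1.5 h aldh1a3.L lay between -1.88 and -0.52 and at 3 h between 0.24 and 2.12, with no overlap. From 3 to 4.5 h neither gene passed the test, with a difference of 0.33 (adjusted p = 0.187) for aldh1a2.L and 0.30 (adjusted p = 0.629) for aldh1a3.L. Over the same steps 47.8%, 69.6% and 30.4% of the 23 target genes rose. The steps were less firm than the whole course. Without a reference, while the Ct of gapdh rose by 0.48 and then by 0.65, the first 2 steps of aldh1a2.L were 0.61 (adjusted p = 0.227) and 0.12 (adjusted p = 0.803), and those of aldh1a3.L were 1.08 (adjusted p = 0.154) and 1.59 (adjusted p = 0.0152). Relative to the panel mean the second step of aldh1a2.L was -0.69 (adjusted p = 0.0004), where 8 of the 23 target genes were called lower. By the exact sign-flip permutation test none of these 4 steps passed (adjusted p from 0.0513 to 0.120). With 6 clutches the exact p cannot fall below 0.03125. After adjustment, here and below, it can pass only where many of the tests adjusted together share that value.

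The same course was followed after RA addition and RA knockdown. In RA embryos aldh1a2.L went from between -2.12 and -1.26 at 0 h (median -1.68) to between 0.05 and 1.37 at 4.5 h (median 0.99). In DEAB embryos it went from between -1.53 and -0.21 (median -1.27) to between 0.05 and 1.36 (median 1.04). The groups at the ends of the course did not overlap in either treatment, and the rise was 2.52 after RA (SE 0.19, 5.74-fold, adjusted p = 2.02e-18) and 1.91 after DEAB (SE 0.19, 3.75-fold, adjusted p = 5.82e-14), in 6 of 6 clutches each. For aldh1a3.L, RA embryos went from between -3.91 and -0.85 (median -3.00) to between 0.66 and 2.29 (median 1.18). DEAB embryos went from between -4.66 and -1.24 (median -2.01) to between 0.77 and 2.31 (median 1.26). Again no sample at 4.5 h was as low as any at 0 h, and the rises of aldh1a3.L were 4.13 (SE 0.46, 17.5-fold, adjusted p = 4.03e-12) and 3.83 (SE 0.46, 14.2-fold, adjusted p = 3.81e-11). Without the DEAB 0 h sample of clutch K the DEAB rises were 2.16 and 4.04, and without that of clutch H 1.79 and 3.71, all past the test. Over the whole course 87% of the target genes rose in RA embryos and 91.3% in DEAB embryos.

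Step by step, relative to gapdh, the treated embryos gave the same calls as the controls. In RA embryos aldh1a2.L rose by 1.29 and then 0.83, and aldh1a3.L by 1.60 and then 1.98. In DEAB embryos aldh1a2.L rose by 0.75 and then 0.88, and aldh1a3.L by 1.56 and then 1.84. All 8 of these differences passed the test, with limma adjusted p-values up to 0.0026. By the exact sign-flip permutation test the DEAB steps from 1.5 to 3 h alone passed (adjusted p = 0.0479 for both genes), and the other 6 had adjusted p from 0.0529 to 0.169. Without a reference the steps of aldh1a2.L were 0.51 and 0.32 after RA and 0.22 and 0.13 after DEAB, and of the 8 only the second RA step of aldh1a3.L passed (1.48, adjusted p = 0.0277). None of the last steps did, although aldh1a2.L was higher at 4.5 than at 3 h in 6 of 6 clutches both after RA (0.40, adjusted p = 0.0713) and after DEAB (0.28, adjusted p = 0.214). The first DEAB step of aldh1a2.L ran from 0.79 to 1.40 in 5 clutches and was -0.95 in clutch K, and without the DEAB 0 h sample of clutch K it was 1.01. For aldh1a3.L it was 1.77 without that sample, and without the sample of clutch H these steps were 0.63 and 1.44. The shares of target genes that rose were 69.6%, 43.5% and 47.8% over the RA steps and 65.2%, 69.6% and 43.5% over the DEAB steps.

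Set in order of their means relative to gapdh, the 12 groups sorted by time in both genes, whatever the treatment. For aldh1a2.L the order from the lowest was RA at 0 h (-1.67 ± 0.35, SD, n = 6), control at 0 h (-1.47 ± 0.39) and DEAB at 0 h (-1.03 ± 0.51), followed by RA (-0.38 ± 0.45), control (-0.38 ± 0.46) and DEAB (-0.28 ± 0.54) at 1.5 h. Then came control (0.39 ± 0.45), RA (0.45 ± 0.47) and DEAB (0.60 ± 0.45) at 3 h, and control (0.72 ± 0.64), RA (0.85 ± 0.49) and DEAB (0.88 ± 0.49) at 4.5 h. DEAB was thus the highest mean at each time. For aldh1a3.L the means at 0 h were -2.79 ± 1.20 in control, -2.78 ± 1.18 in RA and -2.50 ± 1.30 in DEAB. At 1.5 h they were -1.24 ± 0.55, -1.18 ± 0.80 and -0.93 ± 0.92. At 3 h the order was RA (0.80 ± 0.88), DEAB (0.91 ± 1.02) and control (1.0 ± 0.71), and at 4.5 h it was control (1.30 ± 0.83), DEAB (1.34 ± 0.54) and RA (1.36 ± 0.68). Of the 11 pairs of neighbours in each order, only those that span 0 to 1.5 h and 1.5 to 3 h passed limma's test of the means. These were 0.64 (adjusted p = 0.0019) and 0.67 (adjusted p = 0.0014) for aldh1a2.L, and 1.25 (adjusted p = 0.0173) and 1.73 (adjusted p = 0.0007) for aldh1a3.L. The other 9 pairs of neighbours in each order did not pass the test. In the pairs that passed, the samples of the groups overlapped, and the same means had set the order and so the pairs. The order and these tests hold for levels relative to gapdh. For aldh1a2.L the mean Ct was 13.85 in DEAB at 0 h and 13.95 in RA at 1.5 h, against the order of time. By mean Ct the groups of aldh1a3.L still sorted by time. The pairs that span 0 and 1.5 h use DEAB at 0 h, and they were 0.90 and 1.46 without its sample of clutch K, and 0.53 and 1.13 (adjusted p = 0.0138 and 0.0466) without that of clutch H.

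RA addition was compared with control at each time, to ask whether extra RA changed the transcripts of the enzymes that make it. Relative to gapdh no call was made for either gene at any time. Relative to the panel mean aldh1a2.L was called lower at 0 h (-0.82) and 1.5 h (-0.96) and over the mean of the times (-0.62), and aldh1a3.L at 1.5 h (-0.89) and over the mean (-0.63). At 0 h the RA samples of aldh1a2.L (-2.12 to -1.26) overlapped the control samples (-1.99 to -0.89). Within clutches, aldh1a2.L was lower after RA in 5 of 6, by 0.67 in G and by 0.03 to 0.30 in I, J, K and L, and was 0.10 higher in H. The mean difference was -0.20 (95% interval -0.58 to 0.18, adjusted p = 0.550). At 1.5, 3 and 4.5 h it was -0.0017, 0.05 and 0.13, with intervals reaching from -0.38 to 0.51. Its mean over the 4 times was -0.0063 (95% interval -0.20 to 0.18, adjusted p = 0.984), an interval that holds for gapdh as the reference.

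For aldh1a3.L the differences between RA and control embryos went both ways over the clutches. The levels at 0 h were about as spread in control (SD 1.20) as in RA embryos (SD 1.18). At 0 h the difference from control was 1.73 in G, 1.72 in K and 0.49 in I, and -1.97 in H, -1.22 in J and -0.66 in L. The mean was 0.015 (SE 0.46, 95% interval -0.91 to 0.94, adjusted p = 0.974), with 3 of 6 clutches higher. At 1.5, 3 and 4.5 h the mean difference was 0.06, -0.20 and 0.06 (adjusted p from 0.906 to 0.993), and the mean over the 4 times was -0.017 (95% interval -0.48 to 0.45). The interval at a single time reached about 0.93 to either side of the mean, before adjustment over the 23 target genes. It takes the spread to be equal in all groups, while the SD of the differences over the 6 clutches was 1.55 at 0 h and 0.68 at 3 h. Changes of aldh1a3.L of that size or smaller, and at 0 h larger ones too, could therefore be missed in 6 clutches. In the same comparisons 26.1% (0 h), 39.1% (1.5 h), 17.4% (3 h) and 0% (4.5 h) of the 23 target genes passed the test in either direction, and 39.1% over the mean of the times. The calls at 0 h and over the mean include a target gene with missing values, for which no clutch held every sample compared. At 4.5 h 3 target genes had an unadjusted p under 0.05, neither aldh1a gene among them. The readouts of RA addition at 0 h were dhrs3.L (gene of a retinaldehyde reductase, 2.68 higher, adjusted p = 2.07e-14) and cyp26a1.L (gene of an RA-degrading enzyme, 1.66 higher, adjusted p = 0.0009). After DEAB, dhrs3.L differed from control at 0 h by 0.03 and cyp26a1.L by -0.115 (limma adjusted p = 0.986 for both).

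**Figure D2:**
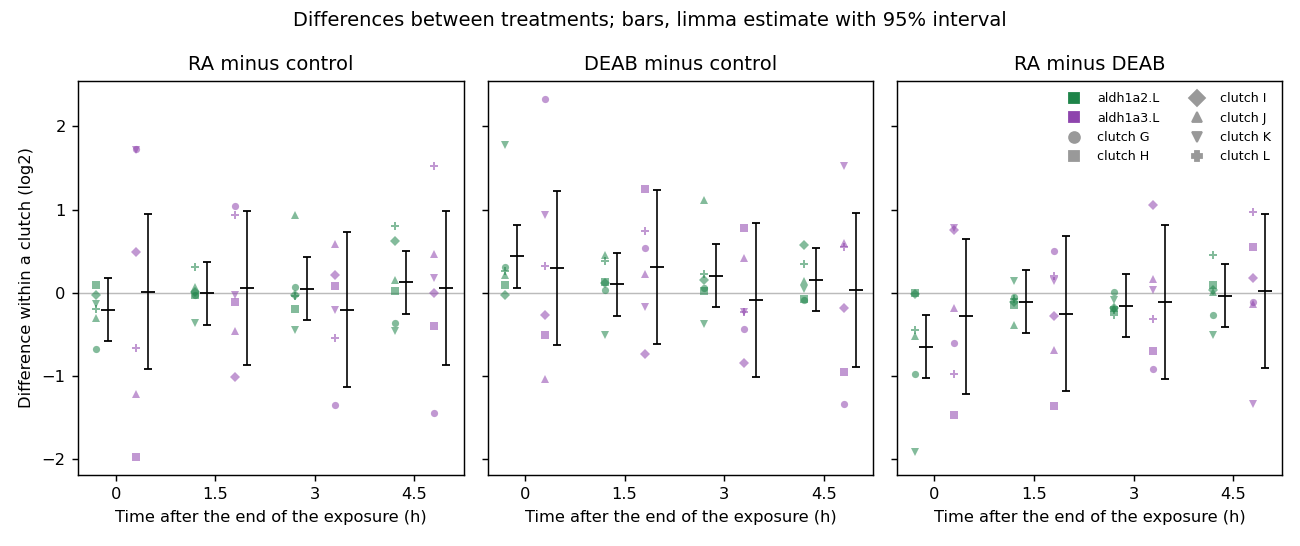
Log2 difference between 2 treatments within each clutch (y axis) at each time after the end of the exposure (x axis), for aldh1a2.L (green) and aldh1a3.L (purple), with 1 point per clutch and black bars for the limma estimate with its 95% interval. The RA minus control and DEAB minus control estimates stayed within -0.20 and 0.44, the purple points are spread far more widely than the green ones, and the lowest green point on the right is RA minus DEAB at 0 h in clutch K, at -1.91.

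RA knockdown was compared with control in the same way, to ask whether the transcripts changed when the enzyme was inhibited. No call was made for either gene, and none was made for any of the 23 target genes at any time or over the mean of the times (0% in each by limma, and 0 by the exact sign-flip test). At 0 h 2 target genes had an unadjusted p under 0.05, aldh1a2.L among them, and over the mean of the times 1 did, aldh1a2.L itself. At the other times 0 did. In DEAB embryos at 0 h the samples of aldh1a2.L were -0.58 in G, -1.26 in H, -1.30 in I, -1.28 in J, -0.21 in K and -1.53 in L. The control samples were -0.89, -1.36, -1.28, -1.50, -1.99 and -1.79 in the same order, so G and K stood above the other DEAB samples and the groups overlapped. The differences were positive in 5 of 6 clutches, 1.78 in K and -0.02 to 0.31 in the others. Their mean was 0.44 (SE 0.19, 95% interval 0.06 to 0.82, adjusted p = 0.348), without clutch K it was 0.17, without the DEAB 0 h sample of clutch K alone 0.18, and without that of clutch H 0.56 (adjusted p = 0.136).

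At 1.5, 3 and 4.5 h aldh1a2.L differed from control by 0.10, 0.20 and 0.16 after DEAB (adjusted p from 0.760 to 0.980), higher in 5, 5 and 4 of 6 clutches. Of the 24 differences over clutches and times, 19 were positive, and the differences of 1 clutch share its embryos. Clutch K was lower than its control at 1.5 h (by 0.50) and at 3 h (by 0.37) and clutch J was higher by 1.12 at 3 h. The mean over the 4 times was 0.23 (SE 0.09, 95% interval 0.04 to 0.42), higher in 6 of 6 clutches, with an adjusted p of 0.450 over the 23 target genes. The exact two-sided sign-flip permutation test gave p = 0.03125, the smallest that 6 clutches can give, and 0.359 after adjustment. Without the DEAB 0 h sample of clutch K this mean was 0.16, and without that of clutch H 0.26.

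For aldh1a3.L, DEAB minus control was 0.30, 0.31, -0.09 and 0.04 at 0, 1.5, 3 and 4.5 h (SE 0.46 each, adjusted p from 0.900 to 0.980). The clutches again went both ways, with 12 positive and 12 negative differences among 24. Clutch G was 2.33 higher than its control at 0 h and 1.33 lower at 4.5 h, and clutch K was 1.52 higher at 4.5 h. The mean over the 4 times was 0.14 (95% interval -0.32 to 0.60). Without the DEAB 0 h sample of clutch K the difference at 0 h was 0.09, and without that of clutch H 0.42. Neither the RA effect nor the DEAB effect on either gene passed limma's F test of a change with time, with adjusted p = 0.923 and 0.966 for aldh1a2.L and 0.975 and 0.966 for aldh1a3.L. By that test 5 of the 23 target genes were called for RA and 0 for DEAB.

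RA and DEAB embryos were then compared directly, since the 2 treatments were meant to move the signal in opposite directions. The readouts given above were called at 0 h after RA only, and no target gene was called in DEAB minus control. At 0 h aldh1a2.L was lower in RA than in DEAB embryos by 0.65 on the log2 scale (1.56-fold). The RA samples were -1.56 in G, -1.26 in H, -1.31 in I, -1.80 in J, -2.12 in K and -1.98 in L, against the DEAB samples given above. The difference was -1.91 in K, -0.98 in G, -0.52 in J, -0.45 in L, -0.01 in I and 0 in H, so the groups overlapped and no clutch was higher after RA. The difference passed the test (-0.65, SE 0.19, limma adjusted p = 0.0039), and the call was lost without the clutch block (adjusted p = 0.0708), in the 12 samples compared alone (0.161), without a reference (-0.61, 0.212) and by the exact sign-flip permutation test (0.180). Here aldh1a2.L was the only target gene called lower, 4.35% of 23, while 9 were called higher. The higher calls include a target gene with missing values, which could be compared within 1 clutch only. Differences of similar size without a call were seen in crabp2.S, gene of a cellular RA-binding protein (-0.55), and in rdh10.S, gene of a retinol dehydrogenase (-0.51). This contrast shares no control sample. For aldh1a2.L it is the difference between the RA effect (-0.20) and the DEAB effect (0.44), neither of which passed on its own.

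The size of this difference depended on clutch K. Without clutch K it was -0.39 (adjusted p = 0.0600), and without the DEAB 0 h sample of clutch K alone it was -0.39 (adjusted p = 0.0475). Without the DEAB 0 h sample of clutch H it was -0.76 (adjusted p = 0.0010). At 1.5, 3 and 4.5 h aldh1a2.L differed by -0.11, -0.15 and -0.03 (adjusted p from 0.653 to 0.996), and 0% of the target genes were called lower at these times. At 3 h the difference was negative in 5 of 6 clutches, -0.08 to -0.27, and 0.01 in G. The mean over the 4 times was -0.23 (SE 0.09, adjusted p = 0.0318), with 6 of 6 clutches below 0. This call too was lost without the clutch block (adjusted p = 0.198), without a reference (-0.35, 0.129) and by the exact sign-flip permutation test (0.0625). Again no other gene was called lower (4.35%), although the mean of crabp2.S was lower still (-0.35). Without clutch K the mean of aldh1a2.L was -0.16 (adjusted p = 0.126), without clutch G it was -0.22 (adjusted p = 0.107), and without the DEAB 0 h sample of clutch K it was -0.17 (adjusted p = 0.0726). Leaving out H, I, J or L kept both calls, and the call at 0 h also held without G (adjusted p = 0.0331). For aldh1a3.L the RA minus DEAB differences were -0.28, -0.25, -0.11 and 0.02, and the mean was -0.16 (95% interval -0.62 to 0.31), with no call.

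The 2 genes were next compared with each other within samples. The difference aldh1a3.L minus aldh1a2.L contains no gapdh, and its change says by how much more aldh1a3.L moved. In control embryos this difference grew by 1.47 ± 0.46 (SD, n = 6) from 1.5 to 3 h, with values of 0.78 in K, 1.01 in I, 1.55 in J, 1.75 in H, 1.82 in L and 1.90 in G. In DEAB embryos it grew by 0.97 ± 0.26 over this step, from 0.59 to 1.39, and in RA embryos by 1.15 ± 1.09, from -0.58 in G to 2.27 in I. The step was thus larger in aldh1a3.L in 6, 6 and 5 of 6 clutches. From 0 to 1.5 h the control change was 0.46 ± 1.46, positive in 2 of 6 clutches, and rested on clutches G and I (up to 2.59). From 3 to 4.5 h it was between -0.03 and 0.15 in the 3 treatments.

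Over the whole course aldh1a3.L gained 1.91 ± 1.75 more than aldh1a2.L in control, 1.61 ± 1.42 more in RA and 1.92 ± 1.18 more in DEAB embryos, in 5, 5 and 6 of 6 clutches. The exact two-sided sign-flip permutation test gave p = 0.03125 for the control and DEAB steps from 1.5 to 3 h and for the whole DEAB course, and 0.0625 for the RA step and the other whole courses. Over the family of 20 such tests the adjusted p was 0.208 for each of these, so none passed. A linear model of this difference over all 72 samples with clutch as a block, which takes the spread to be equal in all groups, gave adjusted p-values of 0.0009 for the control and DEAB courses, 0.0050 for the RA course and 0.0098 for the control step from 1.5 to 3 h. The RA and DEAB steps from 1.5 to 3 h did not pass it (adjusted p = 0.0538 and 0.120). Treated minus control, the difference between the genes lay between -0.29 and 0.22 at each time, with adjusted p from 0.781 to 0.888 by the exact permutation test.

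**Figure D3:**
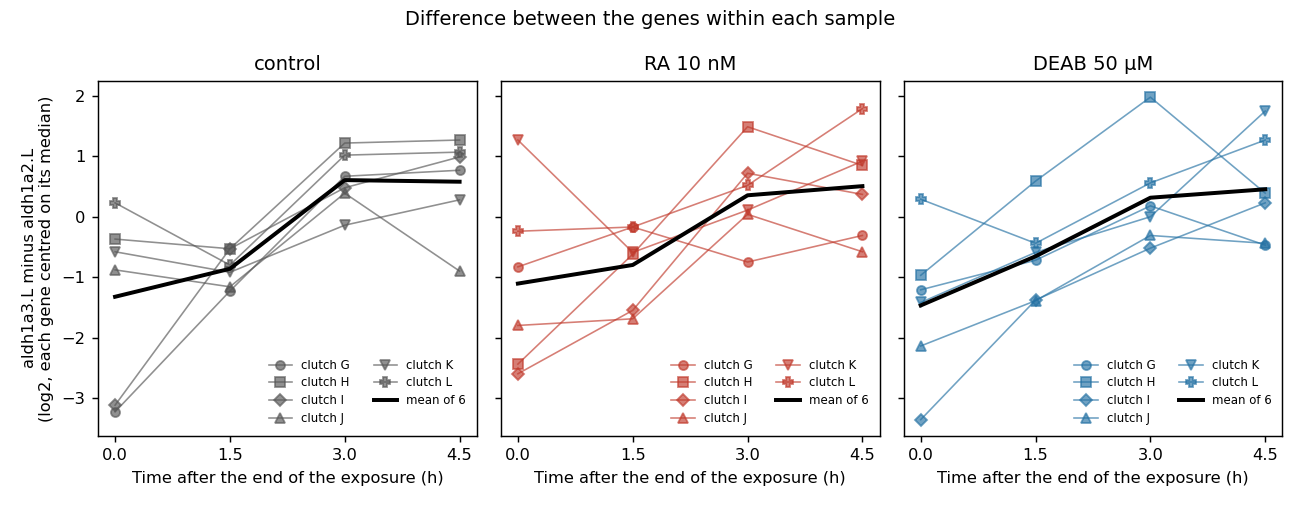
Log2 difference aldh1a3.L minus aldh1a2.L within each sample, with each gene centred on its own median (y axis), against hours after the end of the exposure (x axis), with 1 line per clutch and a thick line for the mean of 6. All control and DEAB lines climbed between 1.5 and 3 h, by 0.78 to 1.90 and 0.59 to 1.39, and the clutches were most spread at 0 h.

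Time took most of the variation in the levels of both genes relative to gapdh. It held 77.3% of the sum of squares of aldh1a2.L and 78.6% of that of aldh1a3.L, and treatment held 1.26% and 0.147%. Clutch held 12.5% for aldh1a2.L and 5.77% for aldh1a3.L, and the rest after treatment by time was 7.96% and 15.3%. These shares were not computed with another reference. Averaged over its 12 samples, clutch G had the highest aldh1a2.L (0.26) and clutches K (-0.48) and L (-0.67) the lowest. For aldh1a3.L clutch H was the highest (0.43) and I (-0.84) and J (-0.89) were the lowest. The order of the clutches was not shared, and in L the lowest mean of aldh1a2.L went with a mean of aldh1a3.L of -0.24, above 4 of the other 5. Across the 72 samples the log2 levels of the 2 genes had r = 0.82, which contains the shared time course and the shared gapdh value. Within the 18 samples of a time r was -0.14 (0 h), 0.64 (1.5 h), 0.54 (3 h) and 0.06 (4.5 h). On minus Ct, with no reference, the same values were 0.09, 0.79, 0.61 and 0.68, so the value at 4.5 h depended on the reference.

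The mean Ct of the reference gene was higher at the end of the time course, without passing a test that 6 clutches could hardly pass. From 1.5 to 3 h it rose in 6 of 6 clutches in control and in DEAB embryos. Both had the smallest possible exact permutation p (0.03125), and the adjusted p was still 0.375. The test therefore cannot show that gapdh was steady. The Ct of gapdh (gene ID 380259) was 12.51 ± 0.62 in control embryos at 0 h and 13.80 ± 0.96 at 4.5 h, a rise of 1.30 in the mean of 6 clutches, 5 of them higher (exact permutation p = 0.0625, adjusted p = 0.375 over 24 contrasts). It rose by 1.62 in RA and by 1.27 in DEAB embryos, and treated and control embryos differed by 0.19 or less at each time. Without a reference, aldh1a2.L rose by 0.89 in control, by 0.90 in RA and by 0.64 in DEAB embryos over the course, the last no longer past the test (adjusted p = 0.108), and aldh1a3.L rose by 2.80, 2.51 and 2.56. With a joint reference of gapdh, sdr16c5.L and stra6.L the control rises were 1.94 and 3.84. Relative to gapdh, sdr16c5.L and stra6.L themselves changed by only 0.36 and 0.39 in control embryos. This reference therefore stays close to gapdh and is no independent check of it. Relative to the mean of the 22 target genes with values in every sample, which moved the median change of the panel in control embryos by -3.39, aldh1a2.L fell by 1.20 in control, by 0.72 in RA and by 1.61 in DEAB embryos. On that scale aldh1a3.L differed by 0.70, 0.90 and 0.32, with a call in RA embryos only. The part of gapdh in these rises was not tested beyond these 4 references. No measure of RNA input was analysed, so values without a reference are not corrected for input.

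**Figure D4:**
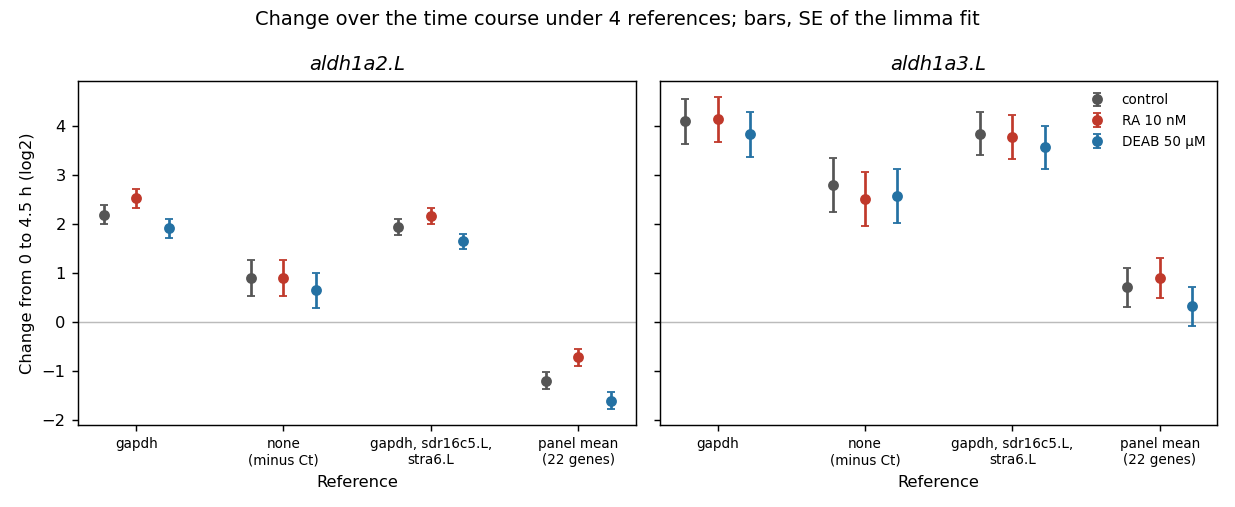
Change from 0 to 4.5 h in log2 units (y axis) of aldh1a2.L (left) and aldh1a3.L (right) with 4 references (x axis), for control, RA and DEAB embryos (colours), with bars for the SE of the limma fit. The control change of aldh1a2.L was 2.19 with gapdh, 0.89 without a reference, 1.94 with the joint reference and -1.20 relative to the panel mean, and aldh1a3.L stayed above 0 with each.

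Set in its pathway, the pair belonged to a list of 5 genes of RA synthesis, with rdh10.L and rdh10.S, homeologs for a retinol dehydrogenase, and sdr16c5.L, for a dehydrogenase of the short-chain family. In control embryos 3 of 5 rose from 0 to 4.5 h, where 82.6% of all target genes did, both aldh1a genes and rdh10.L (2.05, adjusted p = 6.82e-09), while rdh10.S differed by 0.23 (adjusted p = 0.479) and sdr16c5.L by 0.36 (adjusted p = 0.0569). The list's median change was 2.05, against 4.09 over the 23 target genes. In RA and in DEAB embryos 5 of 5 rose, where 87% and 91.3% of all target genes did, with medians of 2.52 and 1.91 against 2.85 and 3.83. In RA minus control 0 of 5 passed the test at each of the 4 times, against 6, 9, 4 and 0 of the 23 target genes at 0, 1.5, 3 and 4.5 h, with list medians of -0.20, 0.06, 0.05 and 0.22 against 0.39, 0.46, 0.16 and 0.39 over all target genes. All these calls were of higher genes. For reduction and degradation they were 3, 5, 3 and 0 of 7 at the successive times, for hox genes 3, 4, 1 and 0 of 7, and for binding and transport 0 of 4 at each. The hox calls at 0 h include the gene with missing values, for which no clutch held both an RA and a control value.

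The genes most like the pair over the 12 group means, as a description, were mainly genes of the same time course. The group means of aldh1a2.L were closest to those of aldh1a3.L (Pearson r = 0.98), rdh10.L (r = 0.98) and crabp2.S (r = 0.97), a gene of a cellular RA-binding protein. Those of aldh1a3.L were closest to aldh1a2.L (r = 0.98) and to the homeologs crabp2.S and crabp2.L (r = 0.98 for both). The least alike in both was rdh13.L, a retinol dehydrogenase gene that fell with time (r = -0.93 for both). All these means share the gapdh values and the clutches. Without a reference the r of aldh1a2.L was 0.88 with aldh1a3.L, 0.87 with rdh10.L and 0.86 with crabp2.S. That of aldh1a3.L was 0.98 with crabp2.S and 0.96 with crabp2.L, so aldh1a2.L was no longer the closest to it. The residuals of the pair after group and clutch, relative to gapdh, had r = 0.29 over the 72 samples.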

How the data were processed

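Total RNA of pooled embryos was reverse transcribed, preamplified and run with a DNA-binding dye on microfluidic arrays. The authors kept the median Ct of 3 preamplifications and deposited 2 tables, of Ct values and of log2 values. All 1709 deposited log2 values equalled gapdh Ct minus gene Ct minus the gene's median within 0.001. A shift in gapdh therefore enters each log2 value, and unequal primer efficiency would scale the differences of a gene. The 19 missing values belong to 1 gene that is no member. Names came from RefSeq (Xenopus_laevis_v10.1, 24 of 24 IDs). Some genes are counted but not named.

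limma 3.58.1 (R 4.3.3) was fitted to the log2 values of 12 groups, with clutch as a block, Benjamini-Hochberg adjustment over 23 target genes in each contrast and a threshold of 0.05. The fit takes the spread of a gene to be equal in all groups. Clutch letters come from the sample titles and pair the samples, since a clutch is 1 set of siblings. Differences between the genes and gapdh Ct were tested with exact sign-flip tests (64 sign assignments). Correlations over group means chose the genes named as most alike, 3 highest and 1 lowest per gene. The fit was tested on simulated data. Alternatives were other blocks, sample sets, references, adjustments and tests, and each clutch left out. The members and lists were chosen with earlier results of these data known. Plots were drawn with matplotlib 3.10.9.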

Additional observations from a re-analysis of the deposited data

Results flagged for a closer look

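Of 72 sets of 6 values of the 2 genes (levels in a group, or differences within clutches), 5 had 1 clutch far from the other 5, where chance gives about 1 in 20, or 3.6. For DEAB minus control at 0 h, aldh1a2.L was 1.78 in clutch K against -0.02 to 0.31 in the others. The same sample made the DEAB step of aldh1a2.L from 0 to 1.5 h -0.95 in clutch K against 0.79 to 1.40. For RA minus control at 3 h, aldh1a2.L was 0.94 in clutch J against -0.45 to 0.07, and for the RA course from 0 to 4.5 h it was 3.17 in clutch J against 2.17 to 2.53. The level of aldh1a3.L in DEAB embryos at 3 h was 2.90 in clutch H against 0.01 to 0.89. At 3 h control and RA embryos also had their highest value in H (2.12 in control).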

How the results depend on the processing

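The rises of both genes from 0 to 4.5 h kept direction and call with other blocks, sample sets, adjustments and tests and with each clutch left out, and the references are the exception. No call of either gene against its control was gained except relative to the panel mean. Among the other comparisons, 1 gained a call in the 12 samples compared alone and 1 with a clutch left out. With no replicate block, which gives up the pairing by clutch, the RA minus DEAB differences of aldh1a2.L kept their size and lost their call (-0.65 at 0 h, adjusted p = 0.0708; -0.23 for the mean of the times, adjusted p = 0.198), and no other call of the genes changed. The call at 0 h was also lost in the 12 samples compared alone (-0.65, adjusted p = 0.161) and both by the exact sign-flip permutation test (adjusted p = 0.180 and 0.0625). Single steps were less stable without a reference, where 10 of 12 called steps lost the call. By the exact test 10 lost it too, where the adjusted p depends on how many target genes share the smallest exact p. The first DEAB steps lost the call in the 12 samples compared alone (adjusted p = 0.127 and 0.0580). Relative to the panel mean the called steps of aldh1a2.L turned negative. There 7 results of aldh1a3.L kept their direction and lost their call, single steps and the control and DEAB courses. Leaving out weakly expressed genes removed aldh1a3.L itself, so it has no value there.

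Without a reference these RA minus DEAB differences were -0.61 and -0.35 (adjusted p = 0.212 and 0.129), the DEAB course of aldh1a2.L was 0.64 (adjusted p = 0.108), and 4 differences near 0 changed sign: RA minus control at 1.5 h for aldh1a3.L (-0.047) and at 4.5 h for aldh1a2.L (-0.0083) and aldh1a3.L (-0.082), and RA minus DEAB at 4.5 h for aldh1a3.L (-0.30). With the joint reference 7 changed sign without a call, all of aldh1a3.L but 1: RA minus control at 0, 1.5 and 4.5 h (-0.056, -0.0011 and -0.13; -0.053 for aldh1a2.L at 4.5 h), DEAB minus control at 4.5 h (-0.057), and RA minus DEAB at 3 and 4.5 h (0.037 and -0.069).

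Relative to the panel mean, RA minus control was called lower for aldh1a2.L at 0 and 1.5 h (-0.82 and -0.96) and for the mean of the times (-0.62), and for aldh1a3.L at 1.5 h (-0.89) and for the mean (-0.63). It was not called for aldh1a2.L at 3 and 4.5 h (-0.36 and -0.34) or for aldh1a3.L at 0 and 4.5 h (-0.60 and -0.42). DEAB minus control of aldh1a3.L at 3 h was 0.020. RA minus DEAB was called lower for aldh1a2.L at 1.5 and 3 h (-1.04 and -0.67) and for aldh1a3.L at 0 and 1.5 h and for the mean (-0.996, -1.18 and -0.81), and was -0.42 for aldh1a3.L at 4.5 h. The 3 steps of aldh1a2.L were -0.011, -0.69 and -0.50 in control, -0.15, -0.089 and -0.49 in RA and -0.47, -0.46 and -0.68 in DEAB embryos, and its courses were -1.20, -0.72 and -1.61. The last step of aldh1a3.L was -0.53, -0.33 and -0.54, and its course lost the call in control (0.70) and DEAB (0.32). RA raised 9 of 23 genes at 1.5 h, and these are part of the panel mean. On that scale RA minus control called 6, 9 and 10 of the 23 target genes lower at 0 h, at 1.5 h and over the mean. RA minus DEAB called 10, 10, 7 and 10 of them lower at 0, 1.5 and 3 h and over the mean.

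With single clutches left out, RA minus control at 0, 1.5, 3 and 4.5 h ran from -0.33 to 0.41, -0.13 to 0.28, -0.36 to 0.030 and -0.24 to 0.35 for aldh1a3.L, and at 1.5, 3 and 4.5 h from -0.064 to 0.070, -0.13 to 0.15 and -0.0060 to 0.25 for aldh1a2.L; the means of the times ran from -0.052 to 0.062 for aldh1a2.L and -0.10 to 0.10 for aldh1a3.L. DEAB minus control of aldh1a3.L ran from -0.11 to 0.57 at 0 h, -0.26 to 0.062 at 3 h and -0.26 to 0.31 at 4.5 h. RA minus DEAB ran from -0.77 to -0.39 at 0 h, -0.13 to 0.064 at 4.5 h and -0.27 to -0.16 for the mean in aldh1a2.L, and from -0.35 to 0.050 at 3 h and -0.17 to 0.29 at 4.5 h in aldh1a3.L. Changes of aldh1a3.L minus aldh1a2.L ran from -0.22 to 0.68, -0.14 to 0.28 and -0.23 to 0.13 for RA minus control at 0, 1.5 and 4.5 h, from -0.58 to 0.080 and -0.44 to 0.098 for DEAB minus control at 0 and 4.5 h, and from -0.13 to 0.23, -0.072 to 0.31 and -0.18 to 0.49 for the last step in control, RA and DEAB embryos.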
